A study of Mus musculus with 6 samples.

Results

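The LDL receptor related proteins were followed through RNA-seq of 6 mouse liver tumor cell lines. The set holds 10 genes, *Lrp1*, *Lrp2*, *Lrp4*, *Lrp5*, *Lrp6*, *Lrp8*, *Lrp10*, *Lrp12*, *Vldlr* and *Lrpap1*, out of 20856 genes with values, taken by gene symbol. The set was chosen by the RPKM of *Lrp2*, which was lower in the Mll3 lines of these same 6, so the values of *Lrp2* are given as a description without a test. Each line grew out of a tumor that hydrodynamic transfection had started in the liver of an adult C57BL/6 mouse, with a *Myc* transposon and a Cas9 plasmid. In 3 lines (Myc;sgp53/Cas9, plasmid px330_sgp53) the guide RNA targeted *Trp53*, and in the other 3 (Myc;sgMll3/Cas9, plasmid px330_sgMll3) it targeted *Kmt2c*, the gene of the histone methyltransferase MLL3. They are called the sg*Trp53* and sg*Kmt2c* lines here. All 6 were made with the *Myc* transposon, meant to integrate stably, and with a plasmid that the paper describes as giving transient Cas9. No line with both *Trp53* and *Kmt2c* intact was compared, so a difference can lie with either genotype. The paper states that the lines of a genotype came from different mice. The line names of sg*Kmt2c* replicates 2 and 3 share a number, and the labels do not name the mice. All lines were cultured without treatment on collagen-coated plates, and were passaged until no fibroblasts were seen. P-values measure the spread between these lines only.

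The LDL receptor family are cell surface receptors built from repeated ligand-binding modules and propeller domains, which carry lipoproteins, proteases and their inhibitors, vitamin carriers and matrix proteins into the cell. LRP1 is the large scavenger receptor of hepatocytes and clears lipoprotein remnants, whereas LRP2 (megalin) is best known for protein uptake in the kidney tubule and other absorptive epithelia. LRP5 and LRP6 serve as Wnt co-receptors, VLDLR and LRP8 (apoE receptor 2) bind apoE and reelin, and LRPAP1 (RAP) is the chaperone that keeps ligands off the receptors in the endoplasmic reticulum.

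Recovered depth was 5312182 to 6878625 reads in the sg*Trp53* libraries and 3680068 to 4704539 reads in the sg*Kmt2c* libraries, so low values are less precise in the latter. The sg*Kmt2c* replicate 1 library stood apart from the other 2 of its genotype (chi-square per gene 85.6 and 81.7, against 36.4 between those 2). *Trp53* was at 17.2, 17.6 and 19.4 RPKM across sg*Trp53* lines, compared with 92.2, 124 and 121 RPKM across sg*Kmt2c* lines. *Kmt2c* was at 24.2, 18.4 and 19.2 RPKM against 19.7, 25.0 and 9.51 RPKM, and these ranges overlap; a small insertion or deletion need not lower the transcript, so this does not check the guide. *Myc* was present in all 6 lines, at 47.1 to 98.1 RPKM. The hepatocyte marker *Alb* was at only 0.644 to 4.36 RPKM (6 to 42 reads). *Hnf4a*, a hepatocyte transcription factor, was at 1186 RPKM (2409 reads) in sg*Kmt2c* replicate 1 and at 0.629 to 170 RPKM (1 to 313 reads) elsewhere. The transcript lengths listed for these 2 genes were not checked, so their RPKM compare lines and not the genes with each other. RPKM here is reads divided by transcript length and by the library's counted reads.

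*Lrp2* lies on chr2:69424340-69586065 (GRCm38, as are all gene positions here, from the deposited table) and encodes megalin, the endocytic receptor for vitamin D and retinol carriers. It was at 35.9, 10.9 and 35.9 RPKM in sg*Trp53* replicates 1, 2 and 3 (3381, 896 and 3822 reads) but at 0.110, 0 and 0.908 RPKM across sg*Kmt2c* lines (8, 0 and 60 reads). Every sg*Trp53* line was thus above every sg*Kmt2c* line, and the lowest sg*Trp53* line still had 896 reads. The mean was 27.5 ± 14.4 RPKM (SD, n = 3) against 0.339 ± 0.496 RPKM (SD, n = 3), an 81.2-fold ratio of means. The fitted log2 fold change, sg*Kmt2c* minus sg*Trp53* on log2(RPKM + 1), was -4.30 (standard error 0.524), a scale that understates changes of low genes. The 0 reads of sg*Kmt2c* replicate 2 allow up to 3 reads, or 0.0526 RPKM, counting error only. Within the sg*Trp53* genotype, replicate 2 stood lowest for *Lrp2*.

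Some macrophage genes lay lower in the sg*Kmt2c* lines, as *Lrp2* did. *Csf1r*, the receptor for a macrophage growth factor, was at 10.0, 1.70 and 8.33 RPKM across sg*Trp53* lines, compared with 0.932, 0 and 0.967 RPKM across sg*Kmt2c* lines. *Lyz2*, which encodes lysozyme of myeloid cells, was at 29.0, 17.1 and 45.3 RPKM against 0, 0.214 and 12.4 RPKM. Both had no overlap between genotypes, with log2 fold changes of -2.06 (adjusted p = 0.440) and -3.53 (adjusted p = 0.427, both limma). *Cd14*, also myeloid, went the other way, at 11.4, 11.6 and 13.6 RPKM against 70.3, 30.7 and 34.5 RPKM. Its log2 fold change was 1.72 (adjusted p = 0.236, limma), also without overlap. Of the 8 immune markers listed, 4 could be tested, and 2 lay lower and 1 higher without overlap (10.4% and 5.72% of all genes). The summed level was 33.3 to 71.7 RPKM for the sg*Trp53* genotype, compared with 36.2 to 76.6 RPKM for the sg*Kmt2c* genotype. *Cd14* made up most of it in the sg*Kmt2c* lines, at 70.3, 30.7 and 34.5 of 76.6, 36.2 and 49.7 RPKM. The overlap of the sums thus does not hold for the immune markers one by one. The defining markers *Cd3e* (T cells) and *Cd79a* (B cells) had 0 reads in all 6 lines. *Ptprc*, a general leukocyte marker, had 0 to 2 reads per line. *Adgre1*, a macrophage marker, had 4, 5 and 11 reads across sg*Trp53* lines against 0, 0 and 1 reads across sg*Kmt2c* lines. *Cd68*, also of macrophages, overlapped between genotypes (log2 fold change -0.17, adjusted p = 0.919, limma). The mesothelial marker *Upk3b* was at 1.44, 1.06 and 5.59 RPKM against 0.0601, 0.0768 and 0.199 RPKM, and the 8 mesothelial markers summed to 7.80 to 34.4 against 3.54 to 93.5 RPKM. Fibroblast markers summed to 15.0 to 986 RPKM for the sg*Trp53* genotype, compared with 0.282 to 149 RPKM for the sg*Kmt2c* genotype, which overlap. *Col3a1* made up 814 of the 986 RPKM, in sg*Trp53* replicate 2, so this sum does not stand for each marker either. Of the 8 fibroblast markers, 4 could be tested, with 0 positive and 4 negative log2 fold changes (median -1.67), 0 without overlap. *Dcn*, below the filter on low values, was lower without overlap, at 85, 9 and 106 reads against 0, 0 and 2 reads. The part of these cell types in the level of *Lrp2* was not tested, and in bulk RNA fewer cells of a type and less RNA per cell cannot be told apart.

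*Lrp1* lies on chr10:127538161-127621148 (GRCm38). It was at 2.21, 11.4 and 10.1 RPKM across sg*Trp53* lines (201, 901 and 1041 reads), compared with 30.5, 48.6 and 16.8 RPKM across sg*Kmt2c* lines (2140, 2668 and 1066 reads). All 3 sg*Kmt2c* lines were above all 3 sg*Trp53* lines, and sg*Kmt2c* replicate 3 came closest. The means were 7.91 ± 4.97 and 32.0 ± 16.0 RPKM (SD, n = 3 each), a ratio of 4.04. Its log2 fold change was 1.99 (standard error 0.615, 95% interval 0.52 to 3.46), with an unadjusted p = 0.0154 and an adjusted p = 0.470 (limma), so the difference did not pass the test over all genes. The exact permutation test of the means, two-sided, gave p = 0.1, the smallest that 3 lines against 3 can give.

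Added together, *Lrp1* and *Lrp2* had overlapping totals in the 2 genotypes while their shares did not overlap. The sum was 38.1, 22.3 and 46.0 RPKM for the sg*Trp53* genotype, compared with 30.6, 48.6 and 17.7 RPKM for the sg*Kmt2c* genotype. *Lrp2* made up 94.2%, 48.9% and 78.0% of it in sg*Trp53* replicates 1, 2 and 3, but 0.359%, 0% and 5.14% in the sg*Kmt2c* replicates. Because the share contains *Lrp2*, it is a description and not a test. These are shares of RPKM, a scale per length, and the transcripts of these genes are among the longest of the set.

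**Figure D1:**
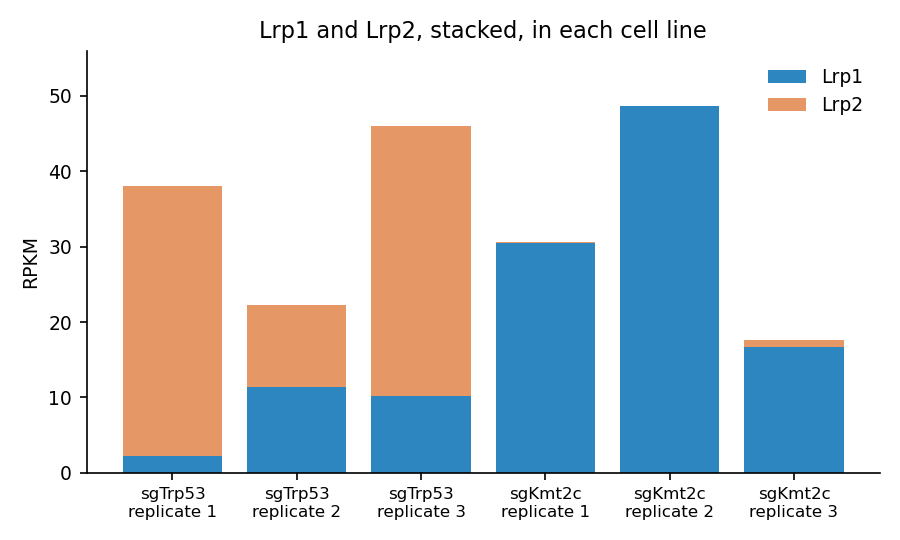
Stacked bars of RPKM for *Lrp1* (blue) and *Lrp2* (orange) in each of the 6 lines, 1 bar per line. *Lrp2* takes 48.9% to 94.2% of the bar in the sg*Trp53* lines and at most 5.14% in the sg*Kmt2c* lines, while the heights overlap.

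The promoters of *Lrp2* and *Lrp1*, which lay in opposite directions, and of *Lrp10*, the next receptor with a single entry, are printed to show the sequence around their starts. RefSeq (GRCm38.p6) had entries for 6 of the 10 members, *Lrp1*, *Lrp2*, *Lrp8*, *Lrp10*, *Vldlr* and *Lrpap1*. Each runs from 250 bases before to 50 bases after the start, 5′ to 3′ on the gene's strand. Capitals mark the GC box letters GGGCGG on either strand.
*Lrp2* (chr2:69585980-69586279, minus strand): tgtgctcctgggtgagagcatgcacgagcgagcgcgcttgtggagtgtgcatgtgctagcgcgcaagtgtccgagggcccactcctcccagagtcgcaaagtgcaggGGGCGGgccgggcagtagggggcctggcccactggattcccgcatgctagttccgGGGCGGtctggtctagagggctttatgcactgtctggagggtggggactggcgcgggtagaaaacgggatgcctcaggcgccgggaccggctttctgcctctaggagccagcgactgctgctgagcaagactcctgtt
*Lrp1* (chr10:127621099-127621398, minus strand): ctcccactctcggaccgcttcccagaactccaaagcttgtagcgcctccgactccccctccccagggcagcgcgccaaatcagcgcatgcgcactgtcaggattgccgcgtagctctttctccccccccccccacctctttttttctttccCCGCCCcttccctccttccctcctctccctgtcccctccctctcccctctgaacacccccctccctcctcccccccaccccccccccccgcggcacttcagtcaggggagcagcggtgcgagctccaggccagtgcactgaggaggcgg
*Lrp10* (chr14:54463897-54464196, plus strand): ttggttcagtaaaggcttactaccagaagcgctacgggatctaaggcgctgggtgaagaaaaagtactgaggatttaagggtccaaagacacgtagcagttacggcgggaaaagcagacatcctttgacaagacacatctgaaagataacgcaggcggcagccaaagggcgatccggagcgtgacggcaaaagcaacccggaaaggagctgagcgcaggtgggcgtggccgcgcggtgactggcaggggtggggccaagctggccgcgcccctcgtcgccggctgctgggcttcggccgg
The *Lrp2* promoter had 65.0% G or C, 20 CG dinucleotides and 2 GC boxes, and that of *Lrp1* had 67.7%, 16 CG dinucleotides and 1 GC box. The *Lrp10* promoter had 60% G or C and 25 CG dinucleotides, and its window holds no match to those letters. Over all 32851 promoters the medians were 52.7% and 7 CG dinucleotides, and 35.7% held a GC box. *Lrpap1* had 5 GC boxes, the most among these entries. Also searched on both strands were the E box CACGTG, found in 7.15% of all promoters, the letters CCAAT (37.4%), the letters TATAAA (13.6%) and the sterol element letters TCACNCCAC (1.24%). None of these 4 was found in the 3 windows shown, which says nothing about any factor.

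The apoE and reelin receptors *Vldlr* and *Lrp8* (chr19:27216484-27254231 and chr4:107802261-107876840) overlapped between genotypes. *Vldlr*, which also takes up triglyceride-rich lipoproteins, was at 10.1, 5.53 and 10.8 RPKM across sg*Trp53* lines, compared with 28.0, 4.32 and 3.58 RPKM across sg*Kmt2c* lines. The high sg*Kmt2c* value belongs to replicate 1, the library that stood apart, and the other 2 lines of that genotype were below every sg*Trp53* line. The log2 fold change was -0.09 (95% interval -1.82 to 1.63, adjusted p = 0.971, limma), and its sign turned when single lines were left out. *Lrp8* was at 15.6, 12.9 and 15.1 RPKM against 13.7, 19.4 and 34.3 RPKM, so 2 sg*Kmt2c* lines lay above the sg*Trp53* range and 1 within it. Its log2 fold change was 0.51 (95% interval -0.31 to 1.32, adjusted p = 0.704, limma). *Lrp8os2*, which overlaps *Lrp8*, had 0 to 3 reads in every line. The transcript length used for *Lrp8* was 0.497 times, and that for *Vldlr* 0.614 times, the longest coding transcript in GENCODE vM1, which bears on their rank in the family and not on comparisons between lines.

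The Wnt co-receptors *Lrp5* (chr19:3584828-3686564) and *Lrp6* (chr6:134446476-134566965) both lay higher in every sg*Kmt2c* line, by small amounts for *Lrp6*. *Lrp5* was at 22.8, 18.4 and 23.1 RPKM across sg*Trp53* lines, compared with 29.6, 53.7 and 27.9 RPKM across sg*Kmt2c* lines. The sg*Kmt2c* lines were all higher, with replicate 2 far above the other 2. Its means were 21.5 ± 2.66 and 37.1 ± 14.4 RPKM (SD, n = 3 each), with a log2 fold change of 0.71 (95% interval 0.01 to 1.40, unadjusted p = 0.0481, adjusted p = 0.580, limma). *Lrp6* was at 17.6, 14.3 and 17.04 RPKM against 18.8, 18.4 and 19.5 RPKM, a narrow gap without overlap. Its means were 16.3 ± 1.77 and 18.9 ± 0.579 RPKM (SD, n = 3 each), and its log2 fold change was 0.20 (95% interval -0.25 to 0.66, adjusted p = 0.754, limma). *Lrp4* (chr2:91457511-91513779), which encodes the agrin receptor of the neuromuscular junction and a Wnt modulator, was at 0.248, 1.52 and 0.311 RPKM (12, 64 and 17 reads) against 0.0268, 0.274 and 0.0885 RPKM (1, 8 and 3 reads). It did not reach the level needed for testing, and its ranges overlap.

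*Lrp10* (chr14:54464164-54471497) and *Lrp12* (chr15:39870603-39943994) encode smaller, more distant receptors. *Lrp10*, which has been placed in traffic between the Golgi and endosomes, was at 19.4, 24.6 and 20.7 RPKM across sg*Trp53* lines, compared with 51.7, 28.3 and 25.9 RPKM across sg*Kmt2c* lines. All sg*Kmt2c* lines were higher, and replicate 1 stood well above the rest. Its means were 21.6 ± 2.72 and 35.3 ± 14.3 RPKM (SD, n = 3 each), with a log2 fold change of 0.63 (95% interval -0.09 to 1.34, adjusted p = 0.608, limma). *Lrp12* was at 4.52, 6.98 and 7.09 RPKM against 1.503, 6.56 and 7.43 RPKM. Here sg*Kmt2c* replicate 1 was the lowest of all 6 lines and the others overlapped. Its log2 fold change was -0.39 (95% interval -1.59 to 0.82, adjusted p = 0.815, limma) and became 0.17 without that line.

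The chaperone gene *Lrpap1* (chr5:35091490-35105766) was at 7.01, 7.60 and 6.79 RPKM across sg*Trp53* lines, compared with 9.01, 13.1 and 7.35 RPKM across sg*Kmt2c* lines. It was tight among the sg*Trp53* lines, and only sg*Kmt2c* replicate 3 fell within their range. The means were 7.14 ± 0.418 and 9.83 ± 2.99 RPKM (SD, n = 3 each), and the log2 fold change was 0.38 (95% interval -0.25 to 1.01, adjusted p = 0.710, limma).

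**Figure D2:**
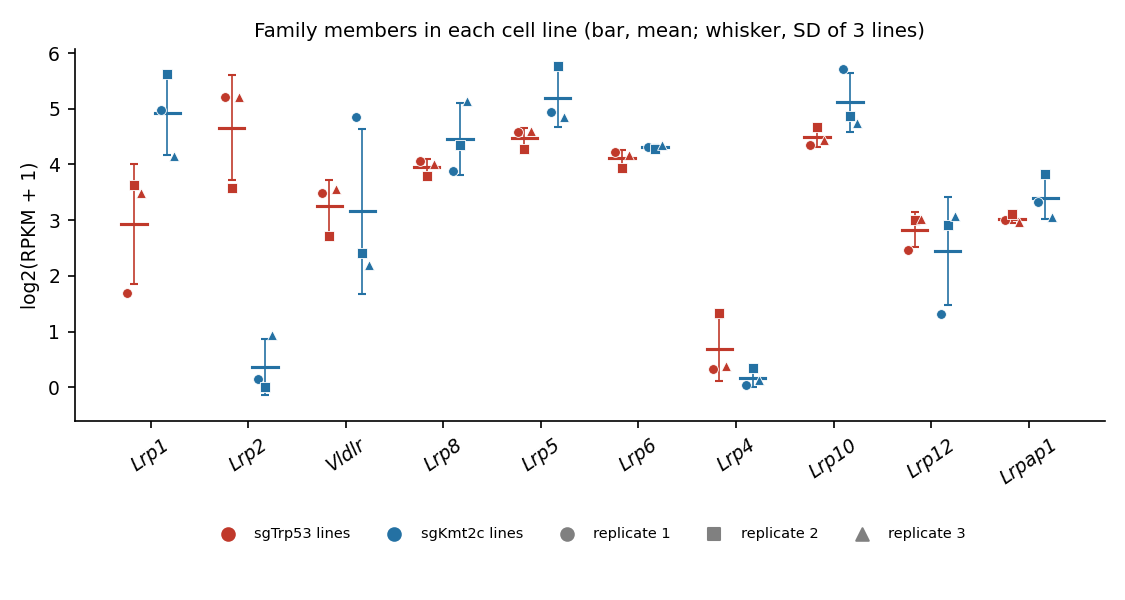
Level of each member on log2(RPKM + 1) in the sg*Trp53* lines (red) and sg*Kmt2c* lines (blue), with a symbol per replicate number, a bar for the mean and a whisker for the SD of 3 lines. *Lrp2* and *Lrp1* show the widest separation, in opposite directions, while *Vldlr* and *Lrp12* have a single sg*Kmt2c* line, replicate 1, far from the other 2.

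Of the 10 members, 9 passed the filter of at least 1 RPKM in at least 3 of the 6 lines, and *Lrp2* did so only through the sg*Trp53* lines. Among the 8 tested members other than *Lrp2*, 0 reached an adjusted p under 0.05 (limma), where 0.129% of all 11617 genes did (0.0516% higher and 0.0775% lower), and the count was also 0 with limma voom. At an unadjusted p under 0.05 there were 2, *Lrp1* and *Lrp5*, both higher in the sg*Kmt2c* lines, where 8.58% of all genes passed, 3.25% higher and 5.34% lower. The lines did not overlap in 4 of the 8, *Lrp1*, *Lrp5*, *Lrp6* and *Lrp10*, all higher in the sg*Kmt2c* lines, against 16.2% of all genes, 5.72% higher and 10.4% lower. With median-of-ratios scaling those shares of all genes became 7.70% and 7.99%, and the same 4 members did not overlap. The fitted values were positive for 6 and negative for 2 of the 8, with a median log2 fold change of 0.44 where the median over all genes tested was -0.09.

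**Figure D3:**
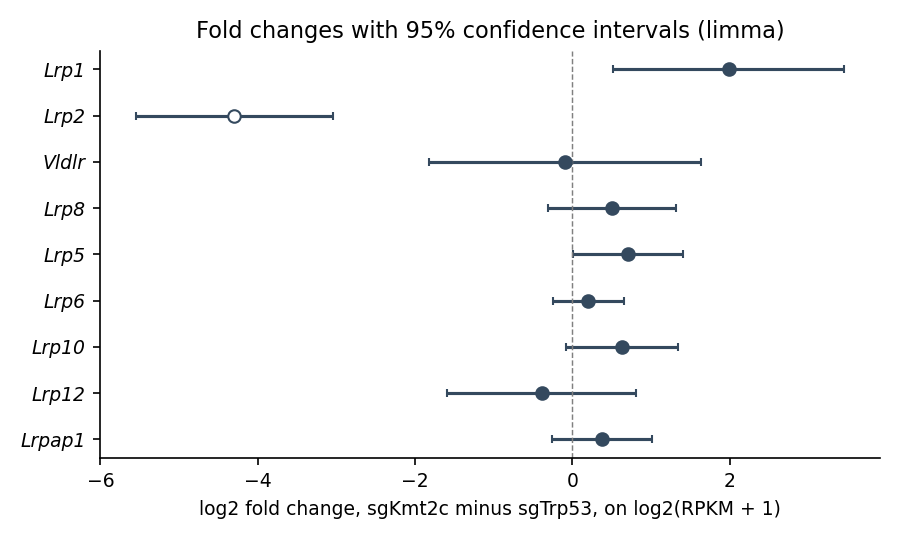
Log2 fold change, sg*Kmt2c* minus sg*Trp53* on log2(RPKM + 1), with its 95% confidence interval from limma for the 9 members that passed the filter. The open symbol is *Lrp2*, which chose the set and has no test. The intervals of *Lrp1* and *Lrp5* lie above 0, and those of the other 6 tested members cross it.

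The order of the members within a genotype also differed. In the sg*Trp53* lines *Lrp2* had the highest mean, followed by *Lrp10* at 21.6 and *Lrp5* at 21.5 RPKM, and these neighbours overlap. *Lrp2* led in replicates 1 and 3 and was at position 6 in replicate 2. In the sg*Kmt2c* lines *Lrp5*, *Lrp10* and *Lrp1* had the highest means, at 37.1, 35.3 and 32.0 RPKM, and did not differ beyond their spread, while *Lrp2* and *Lrp4* were last. Steps without overlap were *Lrp5* above *Lrp6*, *Lrp8* above *Vldlr* and *Lrp12* above *Lrp4* in the sg*Trp53* lines, and *Lrp12* above *Lrp2* in the sg*Kmt2c* lines. Summed over the 10 members the level was 132 ± 16.7 RPKM for the sg*Trp53* genotype, compared with 173 ± 25.9 RPKM for the sg*Kmt2c* genotype (SD, n = 3 each), and these overlap. Summed over the 8 receptors other than *Lrp2* it was 92.6, 95.5 and 104 RPKM against 174, 179 and 136 RPKM, with every sg*Kmt2c* line higher.

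Genes that act with these receptors were followed in lists, and none reached an adjusted p under 0.05 (limma). In the wider LDL receptor family 6 of 8 listed genes were tested, with a median log2 fold change of 0.38. *Sorl1*, a sorting receptor of the same family, was at 10.7, 1.35 and 2.75 RPKM across sg*Trp53* lines, compared with 11.0, 40.0 and 16.8 RPKM across sg*Kmt2c* lines (log2 fold change 2.14, adjusted p = 0.493, limma). These narrowly did not overlap, since sg*Trp53* replicate 1 nearly reached sg*Kmt2c* replicate 1. *Ldlrad4* was lower, at 4.54, 3.54 and 6.00 RPKM against 0, 1.52 and 3.19 RPKM (log2 fold change -1.35, adjusted p = 0.575).

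Among the ligands, 14 of 20 listed genes were tested, 3 had an unadjusted p under 0.05, all lower in the sg*Kmt2c* lines (5.34% of all genes), and 4 did not overlap, all lower (10.4% of all genes). Their median log2 fold change was -0.34. *Apoe*, the apolipoprotein that LRP1, VLDLR and LRP8 bind, was at 15.5, 16.95 and 16.1 RPKM across sg*Trp53* lines (131, 125 and 154 reads), compared with 2.76, 1.17 and 6.92 RPKM across sg*Kmt2c* lines (18, 6 and 41 reads). All 3 sg*Kmt2c* lines were lower, with a log2 fold change of -2.10 (95% interval -3.21 to -0.98, adjusted p = 0.322, limma). *Lpl*, lipoprotein lipase, was at 8.73, 4.20 and 8.75 RPKM against 0, 0 and 3.92 RPKM (log2 fold change -2.22, adjusted p = 0.465). *Plau*, the urokinase protease that LRP1 clears with its inhibitor, was at 18.8, 26.2 and 41.3 RPKM against 9.51, 10.9 and 3.39 RPKM (log2 fold change -1.79, adjusted p = 0.388). The fourth ligand without overlap was *Calr*, with a log2 fold change of -0.35. *Lrp1* thus lay higher and *Apoe*, *Lpl* and *Plau* lower in the sg*Kmt2c* lines, none past the test.

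Genes whose products sort or degrade the receptors were compared as well, and no difference passed the test. Of 11 tested adaptor and turnover genes, 0 were called (limma), 0 had an unadjusted p under 0.05 and 0 were without overlap, and the median log2 fold change was 0.14. Of 7 tested Wnt co-receptor regulators, 0 had an unadjusted p under 0.05 and 1 did not overlap (*Axin1*, log2 fold change -0.27), a share near the 16.2% of all genes. The median was 0.06. *Dkk3* of the same list, below the filter on low values, was lower without overlap, at 18, 18 and 100 reads against 0, 1 and 2 reads. *Axin1*, *Dkk3* and *Calr* were chosen for naming after their values were seen.

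**Figure D4:**
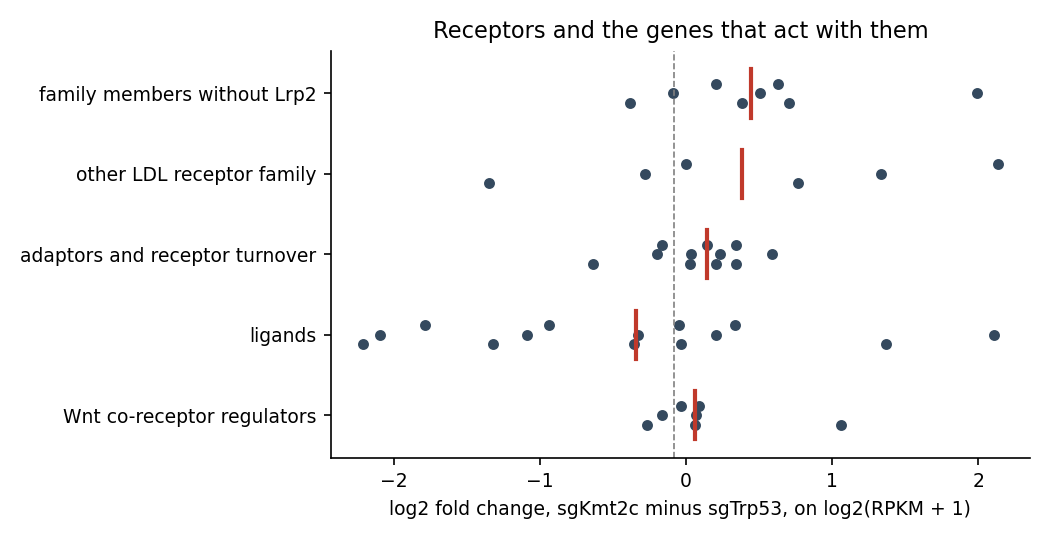
Log2 fold change, sg*Kmt2c* minus sg*Trp53* on log2(RPKM + 1), of each tested gene (dots) in 5 lists, with a red line at the median of the list and a dashed line at the median of all genes tested (-0.09). The 8 members other than *Lrp2* have a median of 0.44 and the 14 ligands a median of -0.34, and no dot passed the adjusted threshold.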

How the data were processed

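RNA was sequenced from 6 liver tumor cell lines, grouped by genotype from the sample labels. The authors trimmed reads with Trimmomatic, used STAR for alignment to GRCm38 and HTSeq for counting, and deposited RPKM with 1 transcript length per gene. A deposited table of the authors' own comparison (fold changes and p-values) was not used. The RPKM table has 21065 rows, 209 of them without values, and 6 sample columns that were not used. Multiplying RPKM by length gave whole reads for 100% of values (largest deviation 6.27e-06 of a read), and so the depth. Strand use in counting is not given in the sources used here, so *Lrp1*, *Lrp5*, *Lrp6*, *Lrp8* and *Vldlr*, which other RefSeq genes overlap, are uncertain.

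The test was limma 3.58.1 in R 4.3.3 (eBayes with trend) on log2(RPKM + 1) for the 11617 genes with at least 1 RPKM in at least 3 of 6 libraries, with a genotype term alone, and p-values were adjusted over all genes (Benjamini-Hochberg). It was run on simulated reads in which every gene had the same variation beyond counting error. That does not show how it performs on these lines. Single genes were compared by a two-sided exact permutation test. Named genes are the members, genes of the fixed lists without overlap and beyond a log2 fold change of 1, defining markers, the 5 genes most like *Lrp2*, the targeted genes and *Myc*. *Calr*, *Axin1*, *Dkk3*, *Col3a1*, *Dcn*, *Rbp4*, *Apob*, *Hspg2*, *Lrp8os2* and the genes beside *Lrp1* and *Lrp2* fall outside this rule. All of these were chosen after their values were seen. Members and lists were chosen with earlier results of these data known. Alternatives changed the pseudocount (0.1, 0.5), filter, scaling, moderation, replicate block and lines included. Some genes of the lists are counted but not reported here by name.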

Additional observations from a re-analysis of the deposited data

How the results depend on the processing

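The number of members past an adjusted p of 0.05 was 0 under every alternative run (0 to 4 at an unadjusted p under 0.05). Of all genes, 6 were higher and 9 lower in the sg*Kmt2c* lines. Counts lower by more than 1.5 times were 2 lower genes with a pseudocount of 0.1, 0 lower without a filter, 3 lower at a mean RPKM of at least 5, and 3 higher and 0 lower with limma voom. Treating sg*Kmt2c* replicates 2 and 3, whose line names share a number, as 1 sample gave 0 and 0. At an adjusted p under 0.1 there were 14 and 19. Leaving out each line gave 0 to 5 higher and 0 to 3 lower, with calls only without sg*Kmt2c* replicate 1. For *Lrp2* the log2 fold change was -6.45 with a pseudocount of 0.1 and -7.78 with voom. *Lrp12* turned to 0.17 without sg*Kmt2c* replicate 1, and leaving out single lines gave -0.71 to 0.17. *Vldlr* turned to 0.34 with sg*Kmt2c* replicates 2 and 3 as 1 sample, 0.02 without sg*Trp53* replicate 1, 0.06 without sg*Trp53* replicate 3, 0.28 when sg*Kmt2c* replicate 2 was left out and 0.39 when replicate 3 was, the range over single lines being -0.94 to 0.39. The cause was not tested. The other tested members kept their sign, *Lrp1* between 1.37 and 2.37 (adjusted p 0.307 to 0.922). Without sg*Kmt2c* replicate 2, *Lrp5* was at 0.41 and *Lrpap1* at 0.17. *Lrp10* was at 0.32 and *Lrp8* at 0.79 once sg*Kmt2c* replicate 1 was omitted, and *Lrp8* at 0.16 once replicate 3 was. *Lrp6* was at 0.12 omitting sg*Trp53* replicate 2. Alternatives chosen after seeing the data left 4 to 5 members without overlap on the higher side, 5 without sg*Trp53* replicate 2, sg*Kmt2c* replicate 1 or sg*Kmt2c* replicate 3. With a line left out, 7.96% to 11.4% of all genes were on that side, and without sg*Kmt2c* replicate 1 another member, *Vldlr*, was lower without overlap. The planned edgeR and DESeq2 fits were not run.

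Whether the replicate numbers pair the lines was not settled. Correlations of same-numbered deviations were 0.19, 0.40 and 0.03. Replicates 1 and 2 of each genotype correlated best with their own number, and replicate 3 did not. Deviations within a genotype sum to 0, which constrains these values. With the replicate block, limma called 0 higher and 0 lower genes (430 and 655 at an unadjusted p under 0.05).

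*Lrp4* was below the filter on low values and was tested only without it, when no member was called.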

Other observations

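The 5 tested genes whose log2(RPKM + 1) followed *Lrp2* most closely over the 6 libraries were *C1qb* (Pearson r = 0.997), *Nox4* (0.996), *Lancl3* (0.995), *Creb5* (0.994) and *C1qa* (0.991). This describes 6 points that share the genotype split and carries no p. *C1qb*, a complement subunit made by macrophages, was at 4.97, 2.76 and 5.34 RPKM across sg*Trp53* lines, compared with 0.195, 0 and 0.645 RPKM across sg*Kmt2c* lines. These values rest on few reads, 33, 16 and 40 against 1, 0 and 3. *Nox4*, an NADPH oxidase, was at 14.4, 6.98 and 12.99 RPKM against 0, 0 and 0.395 RPKM. It too had few reads, 52, 22 and 53 against 0, 0 and 1.

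Genes beside *Lrp2* on chromosome 2, looked at after the data were seen, are given by their values. *Bbs5* and *Fastkd1*, on the side where *Lrp2* starts, overlapped, with log2 fold changes of 0.05 and 0.07. *Ppig*, on the same side, was lower without overlap, at 254, 265 and 261 RPKM against 218, 169 and 228 RPKM. Its log2 fold change was -0.35 (adjusted p = 0.633, limma). *Dhrs9*, on the other side, was at 0.498, 0.834 and 2.24 RPKM across sg*Trp53* lines, compared with 16.2, 0.887 and 0.219 RPKM across sg*Kmt2c* lines. Beside *Lrp1* on chromosome 10, *Stat6* was at 20.6, 27.6 and 18.8 RPKM against 29.9, 40.0 and 33.4 RPKM, without overlap (log2 fold change 0.61, adjusted p = 0.551, limma), and *Shmt2* overlapped.

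Some listed ligands of the family, but not all, were highest in the line that stood apart, sg*Kmt2c* replicate 1. *Rbp4*, the retinol carrier taken up by megalin, was at 664 RPKM there and at 41.9 to 102 RPKM in the other 5 lines. *Apob* was at 4385 RPKM there (23099 reads) and at 0.243 to 129 RPKM elsewhere (1 to 616 reads). In contrast, *Hspg2* was lowest there, at 202 RPKM against 919 to 1562 RPKM elsewhere. The transcript lengths listed for *Rbp4*, *Apob* and *Hspg2* were not checked either. Their RPKM compare lines, and not these genes with each other or with the receptors.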
